A study of Mus musculus with 14 samples.

Results

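The 7 genes described here act in the handling of zinc in mouse cells: the metallothioneins Mt1, Mt2 and Mt3, the metal-responsive transcription factor Mtf1, and the zinc exporters Slc30a1, Slc30a3 and Slc30a4. They were taken by gene name from a table of 23523 gene entries, all 7 had a value in each of 13 libraries, and all 7 passed the filter on low values in every comparison below. The choice rested on measured values, since Mt1 and Mt2 lead in progenitors made from stem cells and Slc30a3 leads in V1 interneurons. Those levels are therefore given as a description, without a test.

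Metallothioneins are small cysteine-rich proteins that bind zinc and copper. Free zinc activates Mtf1, which binds metal response elements in front of Mt1, Mt2 and Slc30a1 and raises their transcription. Mt3 is the metallothionein of the brain and responds little to metals. Exporters of the Slc30 family move zinc out of the cytosol, either out of the cell or into vesicles, and importers of the Slc39 family bring it in. Slc30a3 fills synaptic vesicles with zinc in a subset of neurons.

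The study concerned microRNA-218 (miR-218), a small RNA abundant in motoneurons, and sequenced polyadenylated RNA from mouse spinal cells. GFP-positive motoneurons were sorted from Hb9::gfp spinal cords of stage E12.5, with 6 wild-type (WT) libraries and 2 libraries of the 218DKO mutant, which lacks both miR-218 genes. The reporter is shared by both groups, and Hb9 is the motoneuron gene Mnx1. V1, V2a and V3 spinal interneurons of the same stage carried no mutation and were sorted as tdTomato-positive cells, 1 library each. Their label came from En1:cre (V1), Chx10:cre (V2a) or Sim1:cre (V3) with Rosa26:LSL:tdTomato, so it marks every cell in which the driver was ever active. Mouse embryonic stem (mES) cells gave 2 wild-type libraries at day 4 of differentiation with retinoic acid and a sonic hedgehog agonist. One held Olig2:cre-labelled, tdTomato-positive motoneuron progenitors (mES pMN) and the other unsorted neural progenitors without a reporter (mES NP). A floor plate sample was not analysed here. Whether replicates of a group are separate animals or cultures is not stated, and p-values then reflect the spread among these libraries alone, part of which may be technical.

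Values are a signal per gene that is scaled to transcript length and between libraries, so levels of different genes can be compared. Approximate depths, read from the steps in low values, ran from 7.48 M reads in DKO replicate 1 to 28.5 M. The summed signal of 8 motoneuron markers was 14370 to 18180 in WT and 9860 to 10550 in DKO libraries. Several libraries stood apart from the rest. WT replicates 2, 3 and 4 held 10200 to 27940 of signal for ribosomal Rn45s against 644.2 to 4275 in the other WT libraries. The V2a library held motoneuron markers at 4931 in sum, of which Lhx3 gave 3293, Slc18a3 1202 and Chat 308.8. Mnx1, Isl1, Isl2, Slc5a7 and Prph were at 7.46, 34.4, 7.63, 3.56 and 74.1 there. Globin and other blood genes were at 15480 in the same library. Both mES libraries held 8 pluripotency genes at 9206 and 11220 in sum, with Pou5f1 at 731.4 and 956.1, while no embryonic library passed 509.8. The mature miR-218 is not in these tables. Slit3, the host of 1 of the 2 miR-218 genes, was at 606.5 ± 48.4 (SD, n = 6) in WT and 3708 ± 194 (SD, n = 2) in DKO motoneurons (log2 difference 2.61, limma adjusted p = 1.02e-06). The 2 groups of libraries thus differed in the level of that transcript. The host of the other miR-218 gene is not described here.

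Mt1 and Mt2 lie side by side on chromosome 8 of GRCm38, at 94178883 to 94180327 and 94172618 to 94173567, both on the plus strand. Mt3 (94152607 to 94154148) lies before them in the same direction, separated from Mt2 by the long noncoding RNA gene Gm39227. Sequences in front of these 3 genes and of Slc30a1 are shown because the neighbours differ in where they were expressed and because Mtf1 acts through metal response elements. They come from RefSeq's promoter table for GRCm38.p6, from 250 bases before the transcript start of that table up to the last base before a GENCODE M21 exon. For Mt1 and Slc30a1 that start, 94179089 and 191906781, lies inside the wider RefSeq gene span, so their stretches reach past the first base of that span. Capitals mark the core of the metal response element, TGCACNC or TGCGCNC on either strand.
Mt1, plus strand, chr8:94178839-94179081: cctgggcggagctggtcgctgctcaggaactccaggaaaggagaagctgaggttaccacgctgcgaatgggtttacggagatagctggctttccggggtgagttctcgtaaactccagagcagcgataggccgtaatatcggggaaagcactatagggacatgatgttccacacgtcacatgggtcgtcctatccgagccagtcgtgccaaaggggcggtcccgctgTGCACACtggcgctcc
Mt2, plus strand, chr8:94172368-94172617: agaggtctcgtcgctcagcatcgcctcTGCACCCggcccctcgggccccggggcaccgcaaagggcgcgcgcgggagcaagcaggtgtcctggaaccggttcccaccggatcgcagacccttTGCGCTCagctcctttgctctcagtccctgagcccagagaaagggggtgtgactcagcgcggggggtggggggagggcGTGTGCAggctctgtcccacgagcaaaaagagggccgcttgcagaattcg
Mt3, plus strand, chr8:94152357-94152606: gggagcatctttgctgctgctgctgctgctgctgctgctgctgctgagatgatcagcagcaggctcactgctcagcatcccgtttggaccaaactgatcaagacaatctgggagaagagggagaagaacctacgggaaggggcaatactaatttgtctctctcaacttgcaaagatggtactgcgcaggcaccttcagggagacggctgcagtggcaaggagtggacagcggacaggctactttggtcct
Slc30a1, plus strand, chr1:191906531-191906766: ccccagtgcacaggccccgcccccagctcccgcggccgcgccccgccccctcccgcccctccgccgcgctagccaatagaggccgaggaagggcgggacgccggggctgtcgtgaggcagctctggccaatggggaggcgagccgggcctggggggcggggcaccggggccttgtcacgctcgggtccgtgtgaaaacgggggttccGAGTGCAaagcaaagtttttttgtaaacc
Before the start of that promoter table, Mt2 held 3 matches, Mt1 and Slc30a1 held 1 each, and Mt3 held none. With the next 50 bases included, the counts were 4 for Mt2, 3 for Mt1, 2 for Slc30a1 and 1 for Mt3. In the same 300-base window Slc30a4 held 3 matches, Slc30a3 held 1 at one of its starts and none at the other, and Mtf1 held none. Among 32851 mouse promoters, 25.7% held at least 1 match, 7.11% at least 2, 1.97% at least 3 and 0.517% at least 4. These counts describe letters in a window placed by the annotated start. Another start would change them, and elements beyond the window were not counted, for Mt1 as for the others. They do not rank the genes by their metal response elements and do not show binding.

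Mt1 and Mt2, the metallothioneins found in most tissues, were at or near the detection limit in nearly all embryonic neurons and among the highest genes of both mES libraries. Mt1 had a signal of 7378 in mES pMN and 13422 in mES NP, from about 5008 and 9136 reads. Mt2 had 6536 and 13584 in the same libraries, from about 4130 and 8606 reads. In the unsorted progenitors the pair ranked 95 (Mt1) and 94 (Mt2) of 23523 entries, and together they made up 0.33% of all signal there and 0.141% in mES pMN. Both genes were higher in mES NP than in mES pMN, 1.82-fold for Mt1 and 2.08-fold for Mt2. A rise of more than 2-fold between these 2 libraries was seen in 16.7% of genes with signal, and with 1 library each it has no replicate check. The mES libraries differed from the neurons in most other cell type markers as well, the pluripotency genes above among them, and the part of those differences in the Mt1 and Mt2 signal was not tested.

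Among WT motoneurons Mt1 ranged from 0 through a median of 6.19 to 17.1, the highest value resting on about 14 reads. In DKO replicates 1 and 2 it was at 0 and 2.31, and in V1 and V2a at 8.33 and 10.02. The signal that 3 reads would give was 3.62 to 14.3 in the embryonic libraries, so these values lie close to what the depth can show. Mt2 was at 0 in 6 of the 11 embryonic libraries and reached at most 8.28, from about 4 reads, in V3. In the limma test Mt1 did not pass between DKO and WT (log2 DKO minus WT −1.69 ± 0.92 SE, adjusted p = 0.268), nor did Mt2 (0.46 ± 0.92, adjusted p = 0.790). Neither the few reads, nor the spread among WT libraries, nor the size of the DKO group was separated as a limit here.

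V3 interneurons were the exception among embryonic libraries, for Mt1 alone. Mt1 had a signal of 702.5 there, from about 335 reads, which was 41.2-fold the highest other embryonic value and 10.5-fold below mES pMN. Mt2 in the same library was at 8.28, so the ratio of Mt1 to Mt2 was 84.9 in V3 against 1.13 in mES pMN and 0.988 in mES NP. These 2 closely related transcripts were thus counted apart in that library. A rise of more than 2-fold in V3 over the mean of V1 and V2a was found in 8.83% of genes. Some other cell type markers were also highest in V3 among the 3 interneuron libraries. The sum of 6 mesenchyme and meninges genes was 892.6 in V3, 221.6 in V2a and 18.1 in V1, with none of the 6 at 0 in any of the 3. The sum of 10 neural progenitor genes was 7410, 2648 and 871.3, and Nkx2-2, also a V3 marker, gave 2858 of it in V3. Mt1 was at 8.33 in V1 and 10.02 in V2a. WT libraries, where Mt1 was at most 17.06, had progenitor sums of 4226 to 5765, most of it from Vim at 3601 to 5184. Sox2 was at 17.6 to 102.2 and Hes5 at 6.64 to 50.3 in WT libraries. In V3 Vim was at 2594, Sox2 at 277.3 and Hes5 at 317.2. Blood and endothelial genes were highest in V2a, at 15480 and 131.9 in sum against 998.8 and 86.5 in V3. The part of any of these cells in the Mt1 signal was not tested.

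**Figure D1:**
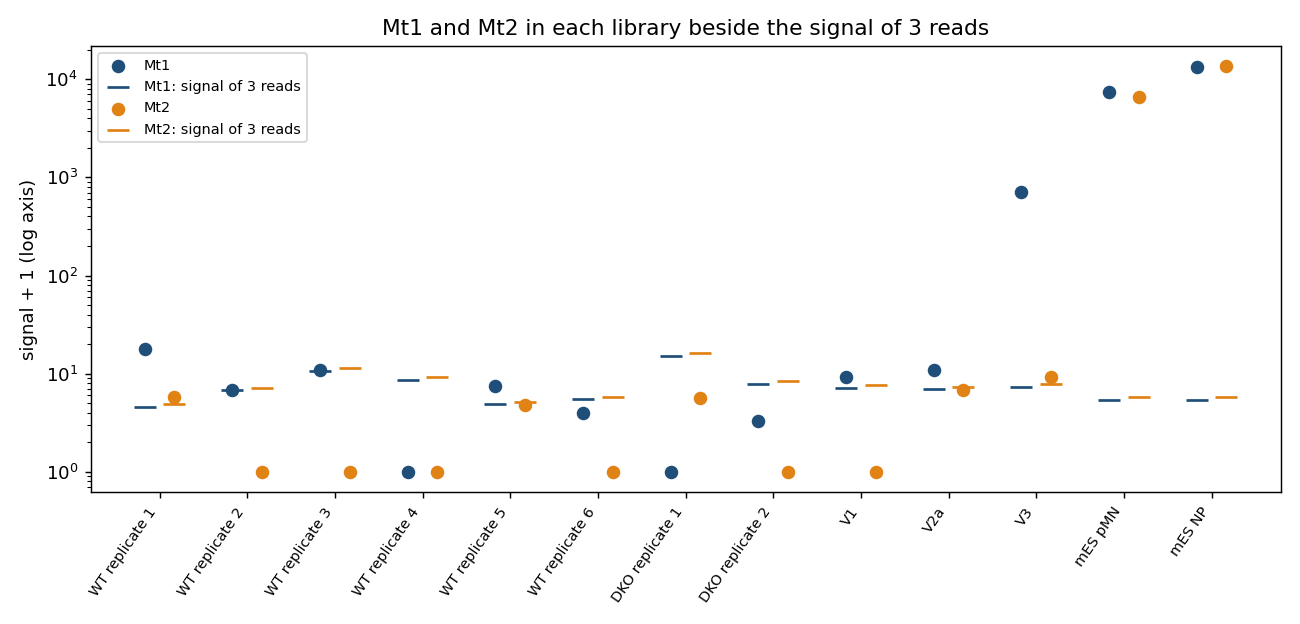
Signal + 1 (log axis) of Mt1 (blue) and Mt2 (orange) in each of 13 libraries, with short bars for the signal that 3 reads would give. Both genes lie near or below those bars in WT, DKO, V1 and V2a libraries, Mt1 alone reaches 702.5 in V3, and both are at 6536 or more in the mES libraries.

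Slc30a1, the exporter of the plasma membrane and a target of Mtf1, varied far less than the metallothioneins. It was at 175.6 in mES pMN and 91.4 in mES NP, the reverse of the order of Mt1 and Mt2, and both values lay above all 11 embryonic libraries, which ranged from 32.8 to 55.2. WT motoneurons ran from 35.3 through a median of 40.8 to 51.2, and DKO libraries were at 52.9 and 55.2. V1, V2a and V3 were at 36.0, 32.8 and 50.6, inside or just below the WT range. The DKO libraries sat above all 6 WT libraries by a small margin, and the difference did not pass the test (log2 0.36 ± 0.21 SE, limma adjusted p = 0.297). WT motoneurons and interneurons did not differ beyond their spread either (log2 0.10 ± 0.21, adjusted p = 0.741).

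Mt3 was high where its neighbours were low, in WT motoneurons. In WT motoneurons it ranged from 290.6 through a median of 432 to 498.1, from about 147 to 376 reads per library. In the DKO libraries it was at 135.9 and 127.7, below every WT library. V1, V2a and V3 were lower again, at 56.6, 40.4 and 42.8, and mES pMN and mES NP stood at 42 and 38.9. The groups came in the order WT, DKO, interneurons, mES progenitors, and only the last 2 of these overlapped. Mt3 was the only member that met the threshold of 0.05 between DKO and WT motoneurons: 419.8 ± 79.6 (SD, n = 6) against 131.8 ± 5.80 (SD, n = 2), a 3.18-fold lower mean (log2 −1.64 ± 0.19 SE, limma adjusted p = 0.00116, lower in 2 of 2 libraries). Thus 1 of 7 members was called, where 7.99% of 16260 genes were called in all 4.77% as lower and 3.22% as higher in DKO.

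The size of the Mt3 difference was similar in subsets of the libraries. Against WT replicates 2, 3 and 4 alone the log2 difference was −1.58 (adjusted p = 0.00806), and against WT replicates 1, 5 and 6 alone −1.71 (adjusted p = 0.00208). With either DKO library left out it still passed (highest adjusted p = 0.0339), the lone sample then being assumed to vary like the others. In bulk samples such as these, fewer cells of a type and less RNA per cell cannot be told apart. Of the 8 motoneuron markers 3 were lower in DKO (Lhx3, Prph and Slc18a3) and none higher, with the sums given above. Of 10 glial genes 8 were tested and none passed, and their sum was 523.3 to 1355 in WT and 415.9 to 521.7 in DKO libraries. Single genes of that list differed in level: Gfap was at 0 in 4 of 6 WT and both DKO libraries, while others were well above 0. Fabp7 was at 186.6 to 961.9 in WT and 236.5 and 172.2 in DKO libraries. Cnp was at 189.8 to 284.4 in WT and 160.7 and 167.2 in DKO libraries. Of 10 neural progenitor genes, Vim was lower in DKO and the other 9 did not pass, with sums of 4226 to 5765 in WT and 2383 to 2778 in DKO. Most of these sums came from Vim itself, at 3601 to 5184 in WT and 2150 and 1809 in DKO libraries. Interneuron markers were higher in sum in both DKO libraries than in any WT library, at 1082 and 1091 against 606.1 to 828.7 for 5 V2a genes and 1004 and 1006 against 355.6 to 803.7 for 7 V1 genes. Of these 12 genes Foxp2 passed the test and the others did not. The part of these shifts in the Mt3 value was not tested.

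Between WT motoneurons and the 3 interneuron libraries, Mt3 was 9.01-fold higher in motoneurons (log2 3.14 ± 0.18 SE, limma adjusted p = 2.58e-06), and the groups did not overlap, as in 33.1% of genes tested. The call held without any 1 library (log2 3.04 to 3.28), the V2a library with its Lhx3, Slc18a3 and Chat signal included. This comparison and the one with DKO share the 6 WT libraries. It called 32.9% of 16486 genes, 17.7% as higher and 15.2% as lower in WT, so a call as such was common here. Of the 6 members tested in it, Mt3 was higher, Mtf1 lower, and the other 4 did not pass. For Mt1 and Mt2 the log2 differences of WT minus interneurons were −2.83 ± 1.30 SE (limma adjusted p = 0.114) and −1.20 ± 0.85 (adjusted p = 0.291).

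**Figure D2:**
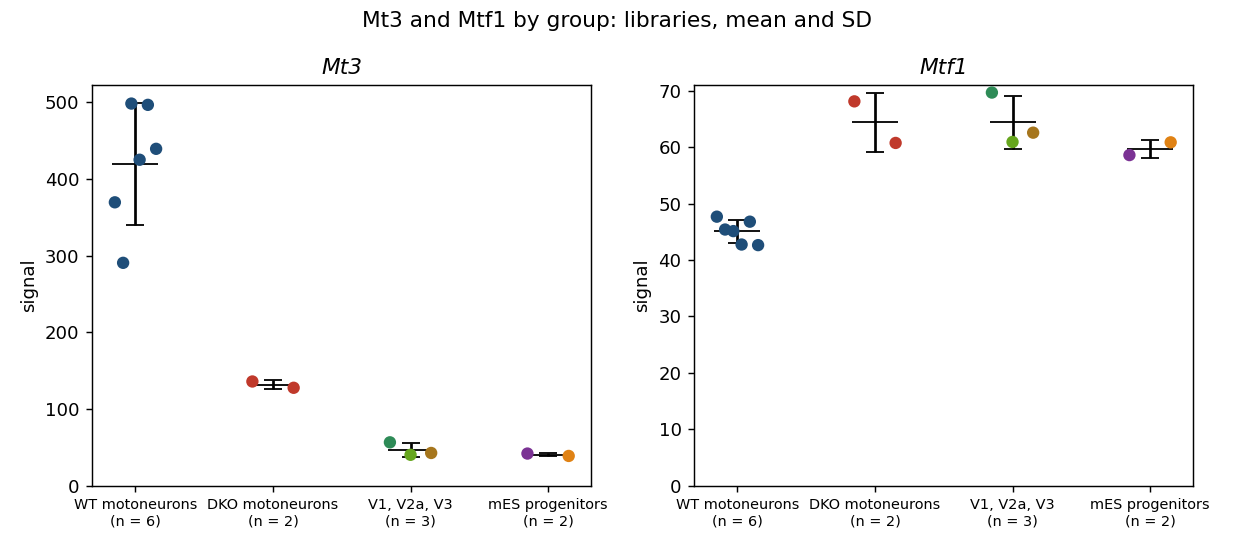
Signal of Mt3 (left) and Mtf1 (right) by group on linear axes; points are libraries, the long bar is the mean and the whiskers are 1 SD. Mt3 falls from 419.8 in WT motoneurons to 131.8 in DKO motoneurons and 46.6 in interneurons, while Mtf1 is lowest in WT motoneurons, where all 6 libraries lie between 42.6 and 47.7.

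Mtf1, the zinc sensor, was expressed at a narrow range of levels everywhere. WT motoneurons ran from 42.6 through a median of 45.3 to 47.7 and were the lowest group. DKO libraries were at 68.1 and 60.7, V1, V2a and V3 at 69.7, 60.9 and 62.6, and mES pMN and mES NP at 58.6 and 60.8. All 7 other libraries lay above all 6 WT libraries, and those 7 did not separate by group. Mtf1 was lower in WT motoneurons than in interneurons (45.1 ± 2.06 SD, n = 6, against 64.4 ± 4.65 SD, n = 3; log2 −0.50 ± 0.15 SE, limma adjusted p = 0.0267). The call rests on few libraries: it was lost without WT replicate 6 (adjusted p = 0.0529), V3 (0.0532), V2a (0.0629) or V1 (0.0795). In DKO against WT motoneurons Mtf1 did not pass (log2 0.51 ± 0.17 SE, limma adjusted p = 0.0864). Groups that do not overlap were found for 3 of 7 members in the DKO comparison (Mt3, Mtf1 and Slc30a1), where 30.7% of all genes tested had them.

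The 3′ UTRs of the 7 genes were searched for sites of miR-218-5p, since the DKO libraries lack it. A site is a stretch that pairs with the seed, bases 2 to 8 of the microRNA, shown in capitals in the mature RefSeq sequence below. The first form searched, AAGCACA, pairs with the whole seed. The other, AGCACAA, pairs with bases 2 to 7 and ends in an A, and a stretch holding both forms was counted once. Of the 7 genes, read on their own strand, Mtf1 held 1 AAGCACA in a 3′ UTR of 5457 bases and Slc30a1 held 1 AGCACAA in 3492 bases, each shown with its flanks and the site in capitals.
miR-218-5p: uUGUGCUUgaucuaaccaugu
Mtf1 site, from position 5331 of the 3′ UTR: ctccatttcaAAGCACAgtactgcctt
Slc30a1 site, from position 3193 of the 3′ UTR: gccttgaaacAGCACAAtggggtgtca
No such letters stood in the 3′ UTRs of Mt1 (134 bases), Mt2 (141), Mt3 (136), Slc30a3 (664) or Slc30a4 (3946). Over 19148 genes, 16.3% held at least 1 site, and long UTRs offer more room for a chance match. Means were higher in DKO than in WT motoneurons for both genes with a site and also for Mt2 and Slc30a4, which hold none, and none of these 4 passed the test.

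Slc30a3, the transporter of synaptic vesicle zinc, had its highest level in the V1 library. Its signal was 1241 there, from about 2289 reads, and 26.6 and 16.1 in V2a and V3. WT motoneurons ran from 2.11 through a median of 7.19 to 50.2, DKO libraries were at 1.31 and 5.62, and mES pMN and mES NP at 2.82 and 40.6. The V1 value was 24.7-fold the next highest library. A signal more than 2-fold above the mean of V2a and V3 was found for 6.11% of genes in V1. Slc30a3 had been chosen because it leads in V1, so its level there is a description. Between DKO and WT motoneurons it did not pass (log2 −1.37 ± 0.96 SE, limma adjusted p = 0.384).

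Among WT motoneurons Slc30a3 varied 23.8-fold, more than any other member that was above 0 in all 6 libraries. Replicates 1 and 5 were highest, at 50.2 and 25.1, and the other 4 lay at 2.11 to 8.17. The same 2 libraries were highest for En1, the V1 transcription factor (40.9 and 24.7 against 2.73 to 11.8), and for Gad1, which makes the inhibitory transmitter GABA (73.4 and 54.4 against 10.4 to 16.4). They were also highest for Gad2, Slc32a1 and Slc6a5, of GABA synthesis, inhibitory vesicles and glycine uptake. They were not the 2 highest for the other V1 markers, Foxd3 (232.6 in replicate 3 against 205.6 in replicate 1) and Foxp2 (330.4 against 251). The sum of 7 V1 markers was 718.5 and 803.7 in these 2 libraries, 355.6 to 604.7 in the other 4 and 8792 in V1, with no marker at 0. In the DKO libraries that sum was 1004 and 1006, most of it from Foxd3 and Foxp2, with En1 at 2.05 and 1.96. Markers of other cells were highest in the same 2 WT libraries too: 10 glial genes summed to 1355 and 1019 against 523.3 to 731.2, and 3 V3 genes to 79.2 and 34.3 against 10.1 to 23.2. Replicate 1 was also the highest WT library for blood (1600) and microglial genes (180.1). The part of any of these cells in the Slc30a3 signal of motoneuron libraries was not tested.

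**Figure D3:**
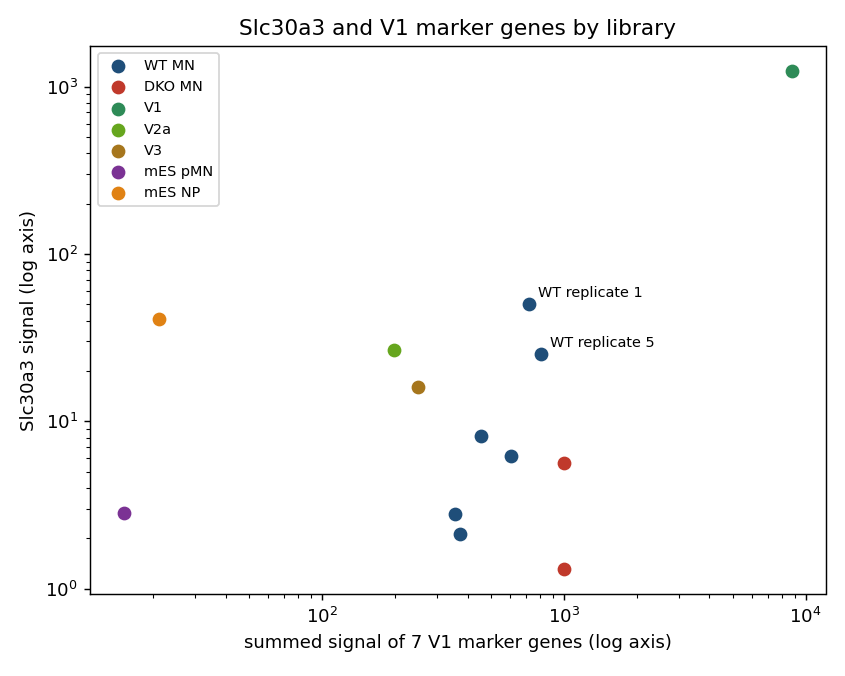
Slc30a3 signal against the summed signal of 7 V1 marker genes in 13 libraries, both on log axes and coloured by group. The V1 library stands alone at 1241 and 8792, and WT replicates 1 and 5 are the highest of the motoneuron libraries for Slc30a3.

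Slc30a4, an exporter of intracellular vesicles, varied little between groups. WT motoneurons ran from 93.7 through a median of 117 to 158, DKO libraries were at 127.8 and 148.3, and V1, V2a and V3 at 121.8, 98.4 and 80.5. The mES libraries were at 82.2 (mES pMN) and 172.8 (mES NP), and the lowest of all 13 libraries was V3. Neither test passed: log2 DKO minus WT was 0.23 ± 0.19 SE (limma adjusted p = 0.476) and log2 WT minus interneurons 0.25 ± 0.19 (adjusted p = 0.330). Over the embryonic libraries Slc30a4 varied 1.96-fold from lowest to highest, Slc30a1 1.68-fold and Mtf1 1.63-fold, against 12.3-fold for Mt3.

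**Figure D4:**
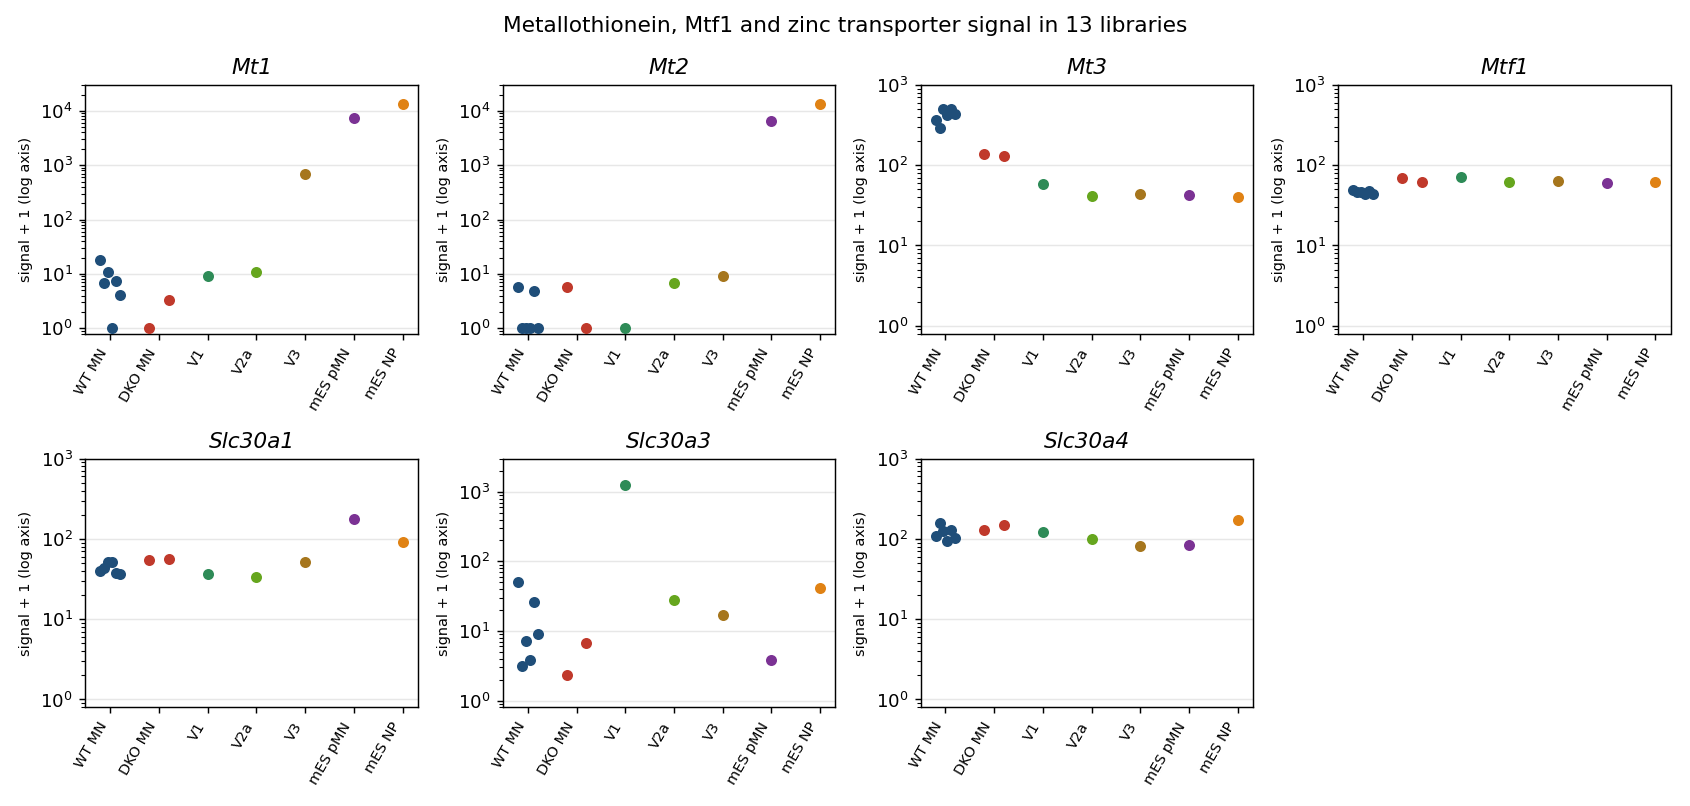
Signal + 1 (log axes) of the 7 genes in 13 libraries, with WT and DKO motoneurons, the 3 interneuron libraries and the 2 mES libraries from left to right. Mt1 and Mt2 lead in the mES libraries, Mt3 in WT motoneurons and Slc30a3 in V1, while Mtf1 stays between 42.6 and 69.7 in all 13 libraries.

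Genes whose pattern over the 13 libraries was most like that of a leading member were ranked by Pearson's r of log2(signal + 1) among 13718 genes whose mean signal reached 10. For Mt1 these were Spc25 (r = 0.973), Mcm10 (0.972), Dock1 (0.971), Bub1b (0.971) and Mrc2 (0.971). Spc25 and Bub1b act at the kinetochore and Mcm10 in DNA replication. Spc25 was at 616 and 931 in mES pMN and mES NP, 137 in V3 and at most 24.4 in WT motoneurons. For Slc30a3 they were Phyhd1 (r = 0.904), Klhl14 (0.880), Osbpl7 (0.874), Gad1 (0.866) and Abca1 (0.866). Klhl14 was at 211 in V1 and at most 14.8 elsewhere, Gad1 at 2060 and at most 73.4, and Abca1 at 70.3 and at most 29.0. Phyhd1 and Osbpl7 were little higher in V1, at 78.2 against at most 64.2 elsewhere and 113 against at most 100. These are descriptions over points of which 6 are WT motoneurons, and few libraries stand out in each pattern. For Mt1 they are the 2 mES libraries and V3, and for Slc30a3 the V1 library.

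Of 29 other zinc and copper genes tested, none was called between DKO and WT motoneurons, where 7.99% of all genes were, and 9 between WT motoneurons and interneurons, where 32.9% of all genes were. In the DKO comparison none of the 7 other Slc30 exporters, none of 13 tested Slc39 importers and none of 9 copper genes passed in limma, with medians of −0.04, −0.05 and −0.25 against 0 over all genes tested. At an unadjusted limma p below 0.05 there were none, 2 (Slc39a4 and Slc39a11) and 2 (Slc31a1 and Slc31a2). The lowest adjusted p among them was that of the copper transporter Slc31a2, with 102 in WT and 62.4 in DKO on average (log2 −0.69 ± 0.19 SE, limma adjusted p = 0.0518).

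Between WT motoneurons and interneurons 2 of 7 exporters were higher in motoneurons and none lower, where 17.7% of all genes were higher and 15.2% lower. Slc30a10, a manganese exporter, was at 12.9 to 23.7 in WT and 11.4, 5.40 and 3.55 in V1, V2a and V3 (log2 1.44, limma adjusted p = 0.00963), and Slc30a9 followed at log2 0.43 (adjusted p = 0.0223). Of 13 importers 2 were higher and 2 lower. Slc39a11 (log2 0.70, adjusted p = 0.00743) and Slc39a6 (0.56, adjusted p = 0.00275) were higher, the latter the most abundant importer of WT motoneurons at 1247 to 1683. Slc39a8, which also carries manganese, was lower (log2 −1.59, adjusted p = 0.0178), as was Slc39a9. Of 9 copper genes 3 were higher: Slc31a2 (log2 1.21, adjusted p = 0.00131), the copper importer Slc31a1 (0.39, adjusted p = 0.0434) and the superoxide dismutase Sod1 (0.38, adjusted p = 0.0316). List medians were 0.12, −0.23 and 0.30 against −0.04 over all genes. The calls of Slc30a10, Slc39a11, Slc39a6 and Slc31a2 held without any 1 library. That of Slc39a8 was lost without V2a (adjusted p = 0.0905) and that of Slc30a9 without V3 (0.0542) or V1 (0.0702). The call of Slc31a1 was lost when WT replicate 2, 3, 4, 5 or 6, V3 or V2a was left out (adjusted p = 0.0509 to 0.18), and that of Sod1 for WT replicate 3, 4, 5 or 6, V3 or V2a (0.0506 to 0.114). Slc39a9 was not followed over left-out libraries.

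The mES progenitors differed from WT motoneurons in 66.2% of 17134 genes tested, 36.2% higher and 30.0% lower, the 2 groups did not overlap in 66.1%, and the median of all genes was 0.12 above 0. The 7 members were chosen in part on this contrast and are not tested in it: their log2 differences were 10.73 for Mt1, 12.40 for Mt2, 1.57 for Slc30a1, 0.40 for Mtf1, 0.33 for Slc30a3, 0.02 for Slc30a4 and −3.32 for Mt3. Of the 7 other exporters 3 were higher and 3 lower (median 0.15), and of 13 importers 6 were higher and 3 lower (median −0.03). Of 9 copper genes 5 were higher and none lower (median 0.91). These shares are to be read against the large share of all genes that passed.

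Individual importers moved in opposite directions between the cell types. Slc39a1, a plasma membrane importer, was at 108.8 to 141.4 in WT motoneurons and 798.8 and 804.7 in mES pMN and mES NP (log2 2.70, limma adjusted p = 6.82e-08). Slc39a3, its close relative, went the other way, from 404.6 to 649.0 in WT to 69.7 and 55.3 (log2 −3.08, adjusted p = 2.15e-07). Both changes were seen in 2 of 2 mES libraries with wide gaps between the groups. Slc39a4, the importer of intestinal zinc uptake that zinc deficiency induces, was at most 2.37 in WT and reached 67.8 and 199.9 (log2 6.19, adjusted p = 1.04e-05). Slc39a14 rose from at most 103.9 to 885.2 and 216.4 (log2 2.45, adjusted p = 0.000736), with the higher value in mES pMN, as for Slc30a1. Slc39a5 rose from at most 2.04 in WT to 5.09 in mES pMN and 51.2 in mES NP (log2 2.95), so its mean difference rests mainly on mES NP. Slc30a2 rose from at most 3.79 to 15.8 and 36.7 (log2 2.91). Slc30a10 fell by 2.38 on the log2 scale, and the mitochondrial copper chaperone Cox17 rose from at most 306.9 to 1451 and 1746 (log2 2.61, limma adjusted p = 9.83e-08).

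Metallothioneins are also known to answer to oxidative stress and glucocorticoids, so genes of both responses were followed. All 8 oxidative stress genes controlled by the factor Nrf2 were higher in mES progenitors than in WT motoneurons (median log2 1.89), where 36.2% of all genes were higher and the median of all genes was 0.12. Hmox1, heme oxygenase, was at 26.4 to 84.9 in WT and at 773.7 and 1443 in mES pMN and mES NP. Of 6 glucocorticoid-induced genes 4 were higher and 1 lower, where 66.2% of all genes were called in either direction. The part of either response in the Mt1 and Mt2 signal of the mES libraries was not tested. Between DKO and WT motoneurons, Gsr of the oxidative list was lower and Sgk1 of the glucocorticoid list higher, 1 gene of each list, where 7.99% of all genes were called.

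**Figure D5:**
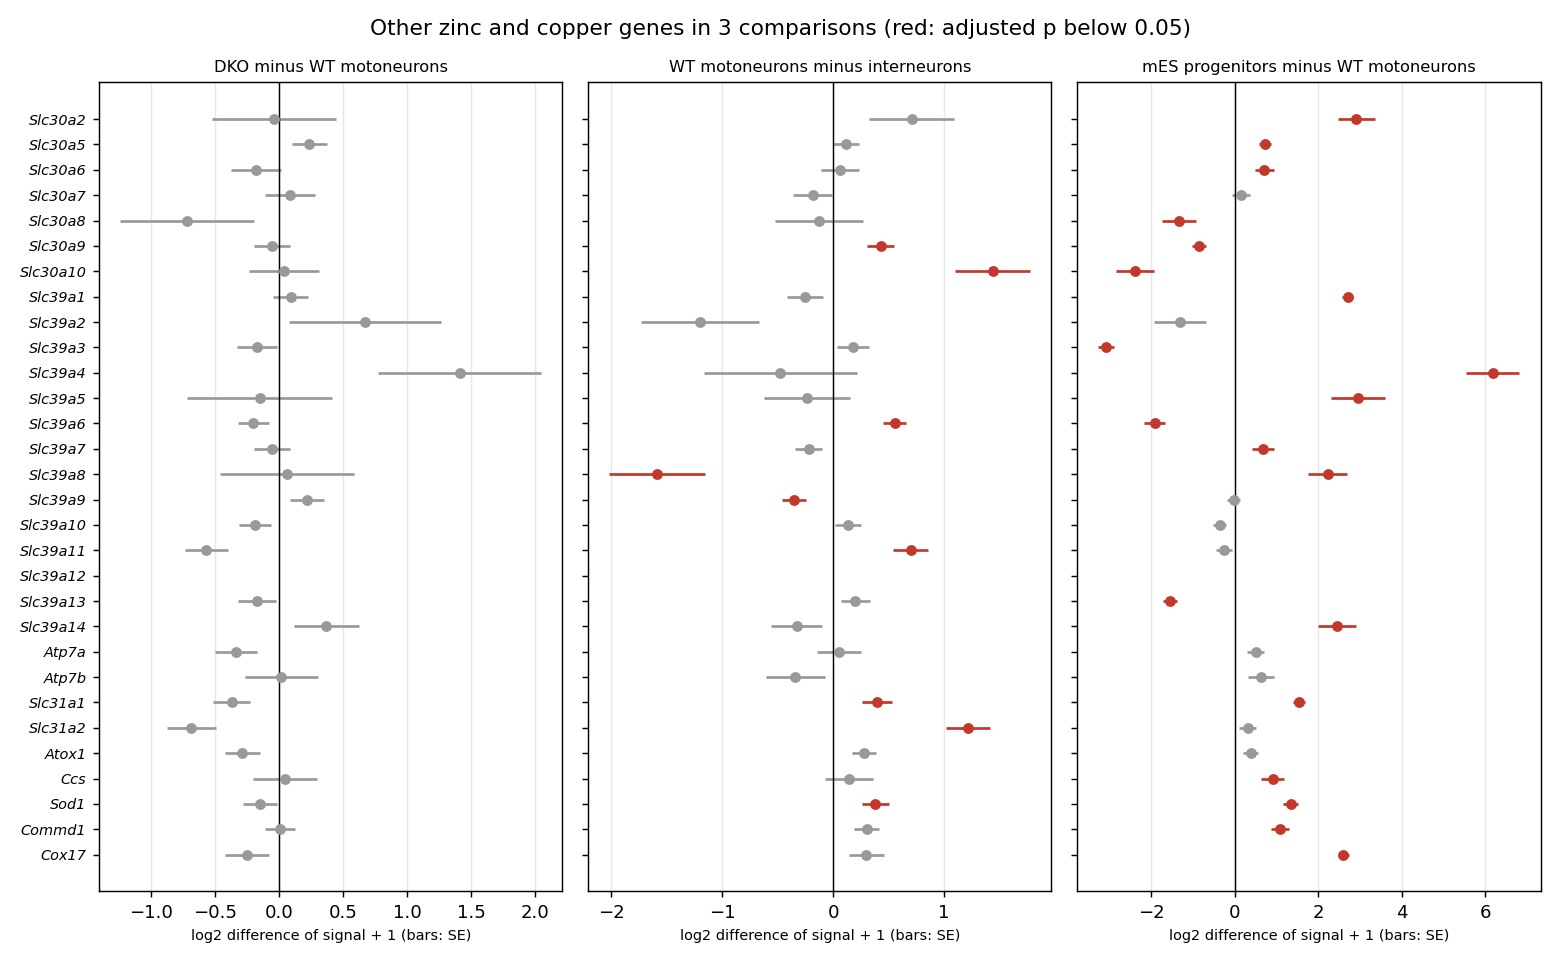
Log2 differences of signal + 1 for the other Slc30 exporters, Slc39 importers and copper genes in 3 comparisons, with bars of 1 SE and red for limma adjusted p below 0.05. Slc39a12 did not pass the filter on low values and has no point. No gene is red in DKO against WT motoneurons, 9 are in WT motoneurons against interneurons, and 20 are in mES progenitors against WT motoneurons, each panel with its own scale.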

How the data were processed

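Polyadenylated RNA was measured in 14 samples, 13 of which are columns of these tables. Per the file headers, the deposited signal was computed by the authors for RefSeq genes (23523 entries) and transcripts (31702 entries). DESeq, bedtools, mm9 and mm10 are named in the submitters' processing notes with neither role nor version. No aligner or counter is given in the sources used here. This signal has an upper quartile of 227.5 to 233.7 in every library. Multiplied by transcript length, 76.7% to 78.5% of low values lay within 0.1 of a whole multiple of a constant per library (20% by chance), which gave approximate reads.

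Tests used limma 3.58.1 under R 4.3.3 (limma-trend, two-sided, Benjamini-Hochberg over all genes, threshold 0.05) on log2(signal + 1), over genes averaging 1 or more, and log2 differences are on that scale, which understates changes of low genes. Since the files hold no counts, the test planned for normalized values was the one applied. DKO was compared with WT, WT with the 3 interneuron libraries as 1 class, and the 2 mES libraries with WT; all share the WT libraries. The procedure was tested on simulated data. Alternatives were the pseudocount, filter, scaling, array weights, subsets of WT libraries, libraries left out, the transcript table and a replicate block. Locations are from the GRCm38 annotation, 3′ UTRs from GENCODE M21.

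The 7 genes and all lists were chosen with earlier results of these data known. Named besides the 7 are, in each comparison, up to 8 genes of the zinc and copper lists past the threshold with the largest log2 difference, and the 5 genes most like Mt1 and Slc30a3; Slc31a2 in the DKO comparison, Slc39a9, Hmox1, Gsr and Sgk1 were named after their values were seen.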

Additional observations from a re-analysis of the deposited data

How the results depend on the processing

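Mt3 passed the threshold in all 19 alternatives of the DKO comparison (log2 −1.74 to −1.31, highest adjusted p 0.0339) and in all 19 tested ones against interneurons. Mtf1 passed against interneurons in 13 of 19 and also failed with WT replicates 2, 3 and 4 alone (adjusted p = 0.0775) or 1, 5 and 6 alone (0.0716); against DKO it passed only with array weights (0.0215). Of 702 values for 37 results of a single gene in 1 comparison followed over alternatives, none changed sign while called, 29 lost their call, 1 gained it and 24 without a test moved. Among these, Slc30a10 against interneurons was lost with WT replicates 2, 3 and 4 alone (0.0767), and Slc39a8 with WT replicates 1, 5 and 6 alone (0.109).

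The number of genes called between DKO and WT (1299, with 523 higher and 776 lower) depended on the setting: array weights gave 3731 (1588 and 2143), restricting WT to replicates 2, 3 and 4 gave 2452 (1282 and 1170), and restricting it to replicates 1, 5 and 6 gave 2315 (985 and 1330). Leaving out 1 library gave 97 to 2032 (27 to 797 higher, 70 to 1235 lower), lowest without DKO replicate 1 and highest without WT replicate 2. WT and DKO share replicate numbers 1 and 2, and the deviations of same-numbered libraries correlated at −0.046 and 0.013, so the numbers were not taken to pair them; with a replicate block 214 genes passed (120 higher and 94 lower, so 56.1% higher against 40.3%) and Mt3 still did (log2 −1.31, adjusted p = 0.0175). With WT replicates 2, 3 and 4 alone 52.3% of calls were higher. Between WT and interneurons (5419, with 2921 higher and 2498 lower), array weights gave 9093 (4517 and 4576), WT replicates 1, 5 and 6 alone gave 3536 (1983 and 1553), and leaving out 1 library gave 3684 to 5672 (2201 to 3000 higher, 1483 to 2702 lower). The counts of the mES comparison stayed within 1.5 times. The cause of these differences was not tested.

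Depth limits the precision of Mt1 and Mt2 in embryonic neurons, where most values rest on fewer than 6 reads. The DKO group has 2 libraries, each interneuron class and each mES population 1, so differences among these single libraries have no replicate check.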

Other observations

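Mt4, the fourth gene of the metallothionein cluster and known from stratified epithelia, was on no list and was looked at after its neighbours' values were seen. It lies before Mt3 on the same strand, at 94137204 to 94139031 of chromosome 8 (GRCm38). Its signal was 0 in all 11 embryonic libraries, where 3 reads would give 4.99 to 19.7. In mES pMN it was at 41.3, from about 20 reads, and in mES NP at 30.9, from about 15 reads. The 3 genes Mt1, Mt2 and Mt4 were thus at their highest in the mES libraries, and Mt3, which lies between Mt4 and Mt2, was at its lowest in mES NP.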
